A study of Mus musculus with 12 samples.

Results

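The alpha and mu glutathione S-transferases (GSTs) were followed in mouse liver across genotype and diet. The set held 10 genes, 4 of the alpha class (Gsta1, Gsta2, Gsta3 and Gsta4) and 6 of the mu class (Gstm1, Gstm2, Gstm3, Gstm4, Gstm6 and Gstm7), found by name among the 20093 genes listed in both count tables. All 10 passed the filter on low counts in every comparison. Some of them had been singled out by the study from the same chow livers, so their direction in chow is no independent evidence. The diet comparisons and the interaction below use those chow livers too.

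RNA was sequenced from livers of 12 male C57BL/6N mice, 3 in each of 4 groups. Every mouse carried a floxed Elavl1 allele (HuR flox/flox), the gene of the RNA-binding protein HuR. At 4 to 6 months of age, per the labels, mice received AAV8-Tbg-Cre to give the group labelled HuRHep-/-, or AAV8-Tbg-null to give the WT group. Tbg is a hepatocyte promoter, so the other cells of the liver were not targeted, and a floxed WT mouse is not a mouse with an unmodified allele. One pair of groups was fed normal chow. The other pair was fed a high fat, cholesterol and fructose (HFCF) diet with 40 kcal% fat, 2% cholesterol and 20 kcal% fructose for 16 weeks. The methods of the study describe another model, a cross to albumin-Cre mice, and the values used here cannot decide between them. Diet went with the table of counts, and the 2 cannot be told apart. Age at collection and time since the virus are not given for the chow mice in the sources used here, so a difference in them between the diets is not known. The labels give 3 mice per group without naming litters or cages, so p-values measure the spread between these livers.

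GSTs join glutathione to reactive compounds, which makes them more soluble and easier to export. Hepatocytes are rich in the alpha and mu classes, which take up products of lipid peroxidation and drug metabolites such as the quinone imine formed from acetaminophen. Several of the genes are known targets of the transcription factor NRF2, which is activated by oxidative and electrophilic stress, and of the receptors CAR and PXR, which respond to drugs and bile acids.

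The mu genes lie side by side on the minus strand of chromosome 3 (GRCm38), from Gstm7, which starts at base 107926334, to Gstm4, which ends at base 108044894. Gsta4, Gsta1 and Gsta2 lie on chromosome 9 between bases 78182774 and 78355788, and Gsta3 lies alone on chromosome 1, from base 21240589 to 21265661. Because the genes are copies of one another, the first 60 coding bases of each gene's main transcript (GENCODE, GRCm38) are shown to let a reader see how far a read can tell them apart. For the alpha class, capitals mark bases that differ from Gsta1.
Gsta1: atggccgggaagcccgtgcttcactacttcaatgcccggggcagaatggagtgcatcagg
Gsta2: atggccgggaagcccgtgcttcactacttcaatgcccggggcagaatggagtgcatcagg
Gsta3: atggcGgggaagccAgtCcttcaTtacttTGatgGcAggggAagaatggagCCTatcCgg
Gsta4: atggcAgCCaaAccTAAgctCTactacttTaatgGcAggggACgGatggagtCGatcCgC

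Gsta1 and Gsta2 did not differ at any of these 60 bases, whereas Gsta3 differed from Gsta1 at 13 and Gsta4 at 19. For the mu class, capitals mark bases that differ from Gstm1.
Gstm1: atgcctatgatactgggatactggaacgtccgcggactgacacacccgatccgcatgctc
Gstm3: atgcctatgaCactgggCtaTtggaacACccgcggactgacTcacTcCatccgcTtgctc
Gstm2: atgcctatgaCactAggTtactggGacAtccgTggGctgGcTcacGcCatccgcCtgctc
Gstm4: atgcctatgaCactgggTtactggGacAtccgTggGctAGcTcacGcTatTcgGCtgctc
Gstm7: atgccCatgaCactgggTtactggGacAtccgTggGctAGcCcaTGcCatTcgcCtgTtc
Gstm6: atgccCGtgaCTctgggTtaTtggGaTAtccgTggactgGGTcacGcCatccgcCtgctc

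Gstm3 was the closest to Gstm1, with 9 differences here and 89.5% of 657 coding bases identical. Read sharing was gauged by the share of a transcript's words of 31 bases that transcripts of other genes also hold. That share was 92.2% for Gsta1 and 75.6% for Gsta2, mostly with each other and with the predicted genes Gm10639 and Gm3776. It was 37.7% for Gstm3, 34.3% for Gstm1, 19.5% for Gstm2 and 17.2% for Gstm6. The remaining Gsta3, Gsta4, Gstm4 and Gstm7 shared at most 3.4%, so their counts are the least open to exchange with a paralog. How the authors' counting split shared reads is not given in the sources used here, and values of Gsta1 and Gsta2 in particular are uncertain as single genes.

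Promoters of 300 bases (RefSeq, GRCm38.p6) were available here for 9 of the 10 genes. The core of the antioxidant response element, through which NRF2 acts, was searched as TGACNNNGC on both strands and was held by 12.4% of 32851 promoters. Among the members it was matched in Gsta3 and at 1 of the 2 annotated starts of Gstm7. This Gstm7 start lies inside the gene, which begins at base 107931817 on the minus strand, and the matched bases lie after that beginning. The window of the other Gstm7 start held no match. The Gsta3 window and the matched Gstm7 window are shown to place the match, which is in capitals.
Gsta3, chr1:21240335-21240634, plus strand: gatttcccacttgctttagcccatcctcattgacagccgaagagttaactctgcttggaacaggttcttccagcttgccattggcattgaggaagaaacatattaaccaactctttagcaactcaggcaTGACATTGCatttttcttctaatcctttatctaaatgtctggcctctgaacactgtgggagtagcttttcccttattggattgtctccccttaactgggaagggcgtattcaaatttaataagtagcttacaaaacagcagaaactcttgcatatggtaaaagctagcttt
Gstm7, chr3:107931565-107931864, minus strand: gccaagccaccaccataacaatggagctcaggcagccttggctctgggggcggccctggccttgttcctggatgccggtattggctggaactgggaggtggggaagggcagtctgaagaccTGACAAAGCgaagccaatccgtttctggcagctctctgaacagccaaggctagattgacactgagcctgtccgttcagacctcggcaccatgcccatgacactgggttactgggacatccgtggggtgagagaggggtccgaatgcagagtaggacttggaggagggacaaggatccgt

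A match of these letters is a description of the window. Gsta1 and Gsta2 also resemble each other upstream of the coding region, and their promoters are shown with runs of at least 12 bases found in both in capitals.
Gsta1, chr9:78230419-78230718, plus strand: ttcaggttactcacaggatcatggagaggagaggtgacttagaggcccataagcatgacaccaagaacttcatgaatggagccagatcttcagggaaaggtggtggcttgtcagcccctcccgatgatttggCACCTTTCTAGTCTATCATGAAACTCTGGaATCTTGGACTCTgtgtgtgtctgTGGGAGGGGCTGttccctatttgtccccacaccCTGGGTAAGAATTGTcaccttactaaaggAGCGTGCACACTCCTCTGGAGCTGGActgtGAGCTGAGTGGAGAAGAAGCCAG
Gsta2, chr9:78347096-78347395, minus strand: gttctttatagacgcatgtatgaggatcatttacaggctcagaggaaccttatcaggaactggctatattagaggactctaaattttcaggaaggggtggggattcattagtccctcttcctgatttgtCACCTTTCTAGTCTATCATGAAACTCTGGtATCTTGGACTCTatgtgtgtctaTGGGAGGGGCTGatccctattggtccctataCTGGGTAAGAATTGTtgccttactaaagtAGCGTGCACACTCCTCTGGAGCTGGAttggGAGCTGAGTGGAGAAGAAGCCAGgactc

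Shared runs covered 117 bases, or 39.0%, of each window.

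Between 30071731 and 35949203 reads per liver were counted on genes. Values below are normalized counts, that is counts scaled to a common library size with trimmed-mean (TMM) factors. The targeted gene went against the labels. Elavl1 held 1058, 998 and 1063 normalized counts in WT chow livers and 1461, 1339 and 1327 in chow livers labelled HuRHep-/-. In HFCF it held 809.9, 825 and 918 in WT livers and 1093, 1087 and 1146 in livers labelled HuRHep-/-. Elavl1 was thus higher in the livers labelled HuRHep-/- in both diets, without overlap, by 0.40 ± 0.07 (log2, SE; limma, adjusted p = 0.0254) in chow and by 0.38 ± 0.07 (limma, adjusted p = 0.0326) in HFCF. Both differences were under 1.5-fold. Over the omissions of 1 liver the estimates stayed between 0.36 and 0.43 in chow and between 0.35 and 0.44 in HFCF, while the adjusted p rose above 0.05 in chow without WT replicate 1 or 3 or without HuRHep-/- replicate 1 or 2, and in HFCF without any 1 liver other than WT replicate 3, to as much as 0.120. Counts over the whole gene do not show which exons they fall on, and every genotype effect below is that of the libraries as labelled.

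All 10 hepatocyte markers, such as Alb and Apoa1, passed the filter in each diet. Their summed level ranged from 3288030 to 4063690 normalized counts in WT chow livers, from 2789420 to 3017910 in chow livers labelled HuRHep-/-, from 2326210 to 2563760 in WT HFCF livers and from 2120250 to 2250330 in HFCF livers labelled HuRHep-/-, with no overlap between any of the 4 groups. The mean log2 level of the same markers, which weights each gene alike, did not overlap between the diets but did overlap between the genotypes in each diet, and the median log2 fold change between genotypes was -0.07 in chow and -0.05 in HFCF. Fewer cells of a type and less RNA per cell cannot be told apart in whole liver.

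Per length of transcript, Gstm1 and Gsta3 made up most of the family. In WT chow livers Gstm1 stood at 1434 ± 308 RPKM (SD, n = 3), computed here per kilobase of the main transcript, and Gsta3 at 1008 ± 137 RPKM. Next came Gstm6 at 128 ± 18.0, Gsta4 at 85.5 ± 15.4, Gstm2 at 77.1 ± 9.60 and Gstm3 at 64.2 ± 13.4 RPKM. Gsta2 followed at 49.5 ± 17.2, Gstm7 at 46.9 ± 4.07, Gstm4 at 39.6 ± 8.14 and Gsta1 at 12.5 ± 5.62 RPKM. From Gsta4 to Gstm4, each gene in this order differed from the next by less than the sum of their SDs.

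**Figure D1:**
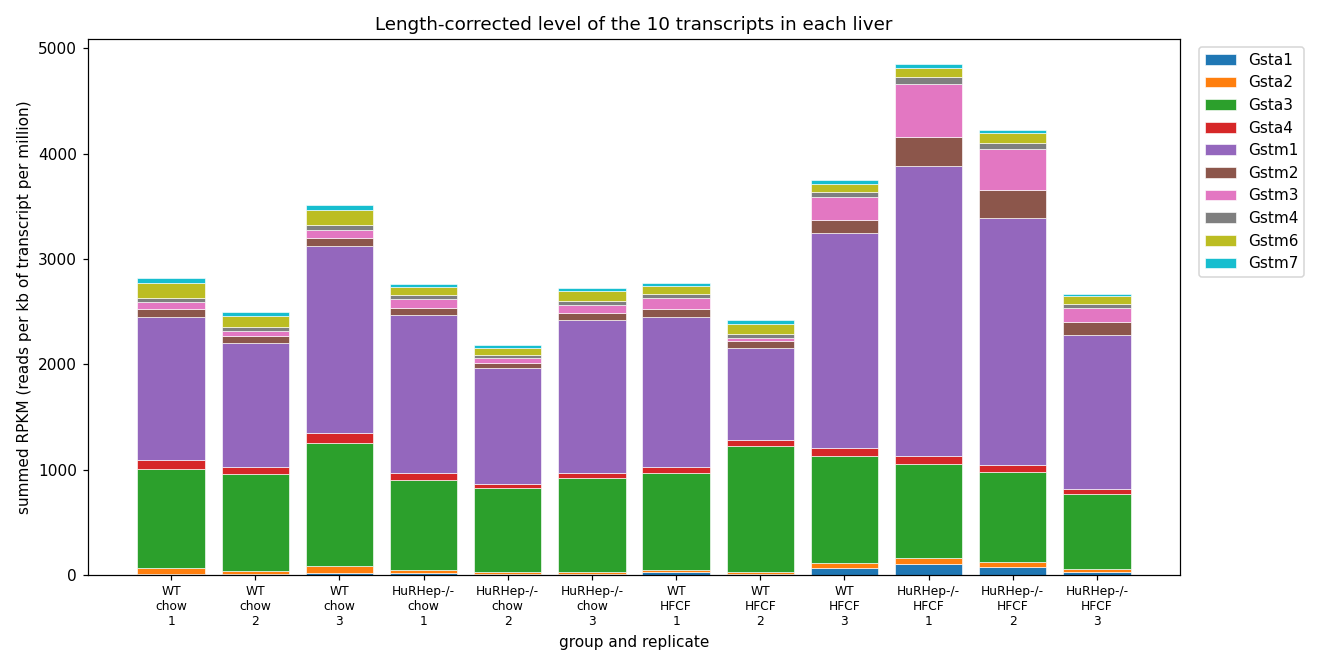
Stacked length-corrected levels (RPKM, linear axis from 0) of the 10 genes in each of the 12 livers, by group and replicate. Gstm1 and Gsta3 take up most of every bar, and Gstm3 and Gstm2 widen in the HFCF livers labelled HuRHep-/-.

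In WT chow livers Gstm1 took 48.5% ± 1.81 (SD, n = 3) of the summed RPKM of the 10 genes and Gsta3 34.4% ± 2.04. In chow livers labelled HuRHep-/- Gstm1 took 52.7% ± 2.10 and Gsta3 33.4% ± 2.88. In WT HFCF livers Gstm1 took 47.4% ± 9.70 and Gsta3 36.6% ± 11.7. In HFCF livers labelled HuRHep-/- Gstm1 took 55.7% ± 1.05 and Gsta3 21.8% ± 4.28. Over these 4 groups in the same order the share of Gstm3 was 2.17% ± 0.102, 2.68% ± 0.521, 3.54% ± 2.24 and 8.22% ± 2.81, and that of Gstm2 was 2.64% ± 0.337, 2.47% ± 0.0936, 2.94% ± 0.375 and 5.63% ± 0.779. The summed level of the alpha class ranged from 1026 to 1346 RPKM in WT chow livers, from 863 to 967 in chow livers labelled HuRHep-/-, from 1026 to 1277 in WT HFCF livers and from 811 to 1131 in HFCF livers labelled HuRHep-/-. For the mu class the ranges were 1474 to 2167, 1315 to 1794, 1142 to 2541 and 1861 to 3718 RPKM.

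**Figure D2:**
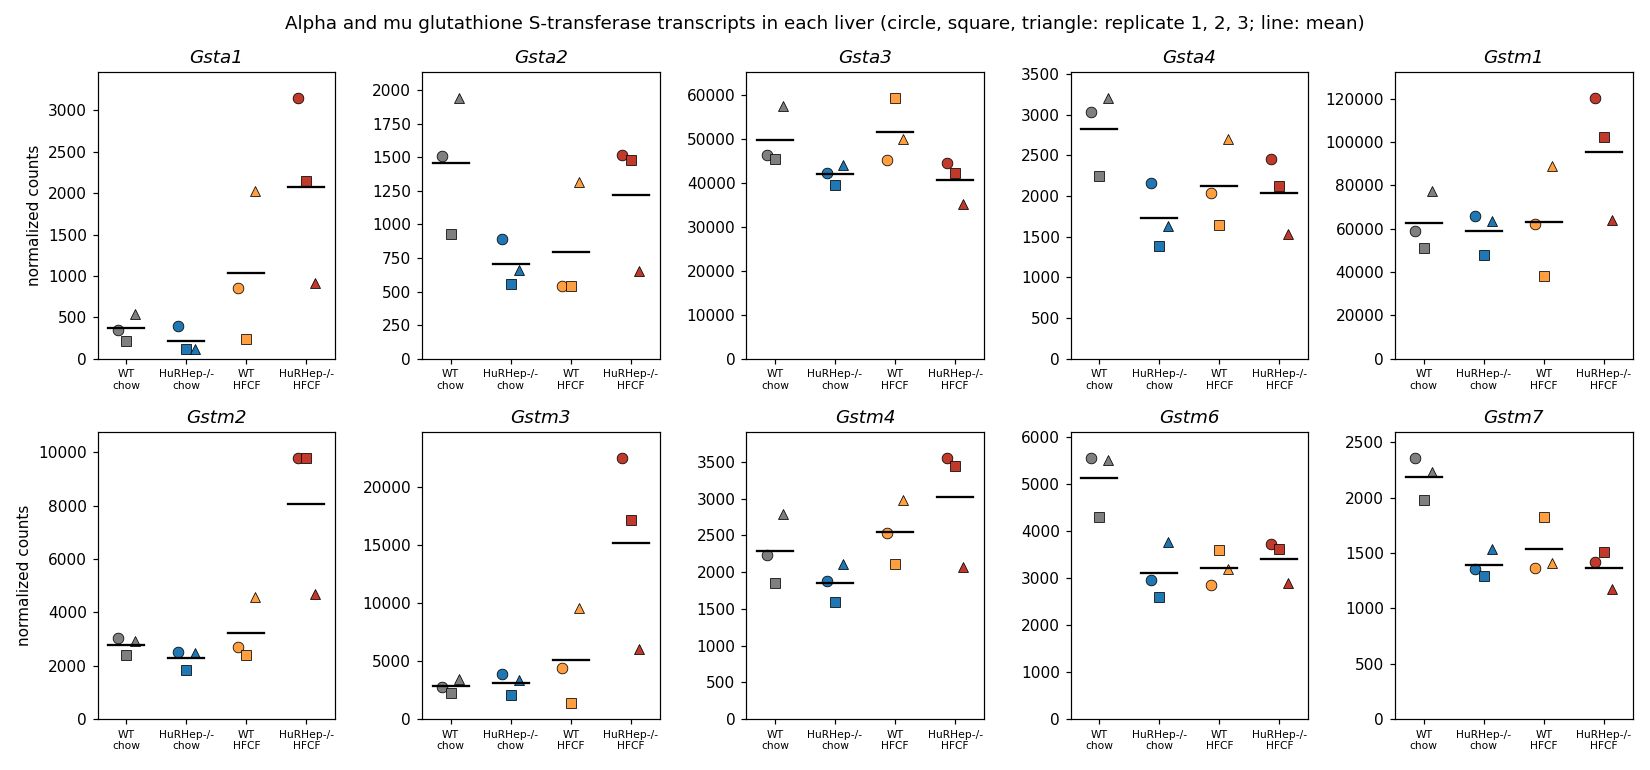
Normalized counts (linear axes from 0, 1 panel per gene) in each liver, with circles, squares and triangles for replicates 1, 2 and 3 and a line at the group mean. Gstm6 and Gstm7 are highest in WT chow livers, while Gsta1, Gstm2 and Gstm3 reach their highest values in HFCF livers labelled HuRHep-/-.

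The first comparison asked how the GSTs differed between genotypes on chow. Gstm6 and Gstm7, mu enzymes encoded next to each other, were lower in livers labelled HuRHep-/-, and 9 of the 10 genes had a negative estimate. A differentially expressed gene (DEG) needed an adjusted p no higher than 0.05, a 1.5-fold difference or more, and 10 counts or more summed over either group. By these criteria 2 of 10 members were called, both lower, against 2.31% of the 13526 genes tested. The median log2 fold change was -0.47 over the members and -0.0013 over all genes.

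Gstm6 held 5545, 4286 and 5511 normalized counts in WT chow livers and 2948, 2599.6 and 3762 in chow livers labelled HuRHep-/-. The lowest WT liver stood above the highest liver labelled HuRHep-/-. Its log2 fold change was -0.73 ± 0.15 (SE; limma, adjusted p = 0.0424), a 1.65-fold lower level. Gstm7 held 2357, 1984 and 2229 in WT chow livers and 1353, 1297 and 1533 in those labelled HuRHep-/-. Again no liver of one group reached the other. The log2 fold change of Gstm7 was -0.65 ± 0.09 (limma, adjusted p = 0.0136). Without WT replicate 1 or 3, or HuRHep-/- replicate 1 or 2, neither gene was called, with adjusted p from 0.118 to 0.149 for Gstm6 and from 0.0526 to 0.0751 for Gstm7, while the estimates stayed between -0.87 and -0.61 and between -0.72 and -0.60 over all 6 omissions. Summed with Gstm1, Gstm3 and Gm12494, which are joined to it by at least 5% of words, Gstm6 was not called (-0.11; limma, adjusted p = 0.757), and the sum is set mainly by Gstm1. The omissions lowered the number of DEGs among all genes to as few as 8.

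Gsta2 and Gsta4, both of the alpha class, were also separated by genotype but missed the threshold. Gsta2 held 1512, 928 and 1941 normalized counts in WT chow livers and 890.3, 556 and 662 in those labelled HuRHep-/-, a log2 fold change of -1.02 ± 0.27 (limma, adjusted p = 0.0785). Gsta4, which conjugates 4-hydroxynonenal, a product of lipid peroxidation, held 3033, 2251 and 3206 against 2164, 1391 and 1627, a log2 fold change of -0.72 ± 0.18 (limma, adjusted p = 0.0712). The groups did not overlap for either gene, though the lowest WT liver and the highest liver labelled HuRHep-/- were close. Without WT replicate 2, the lowest WT liver, both were called (limma, adjusted p = 0.0281 for Gsta2 and 0.0457 for Gsta4).

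Gsta3 was the other gene without overlap in chow, at a log2 fold change of only -0.24 ± 0.11 (limma, adjusted p = 0.239). In all, 5 members showed no overlap between genotypes, which 29.1% of all genes also did. Gsta1 held 347, 215 and 546 normalized counts in WT chow livers and 397, 118 and 113 in those labelled HuRHep-/-. One liver labelled HuRHep-/- lay within the WT range, and the log2 fold change of -0.98 ± 0.51 was not called (limma, adjusted p = 0.290). Gsta1, Gsta2 and Gm10639 summed gave -0.99 ± 0.31 (limma, adjusted p = 0.117). Gm3776, which holds 87.8% of the words of Gsta1, has no counts listed in either diet and is not part of the sum. Reads from it could have been counted under Gsta1, which was not tested. For Gstm1, Gstm2, Gstm3 and Gstm4 the log2 fold changes ran from -0.29 to 0.09, with overlap in each.

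**Figure D3:**
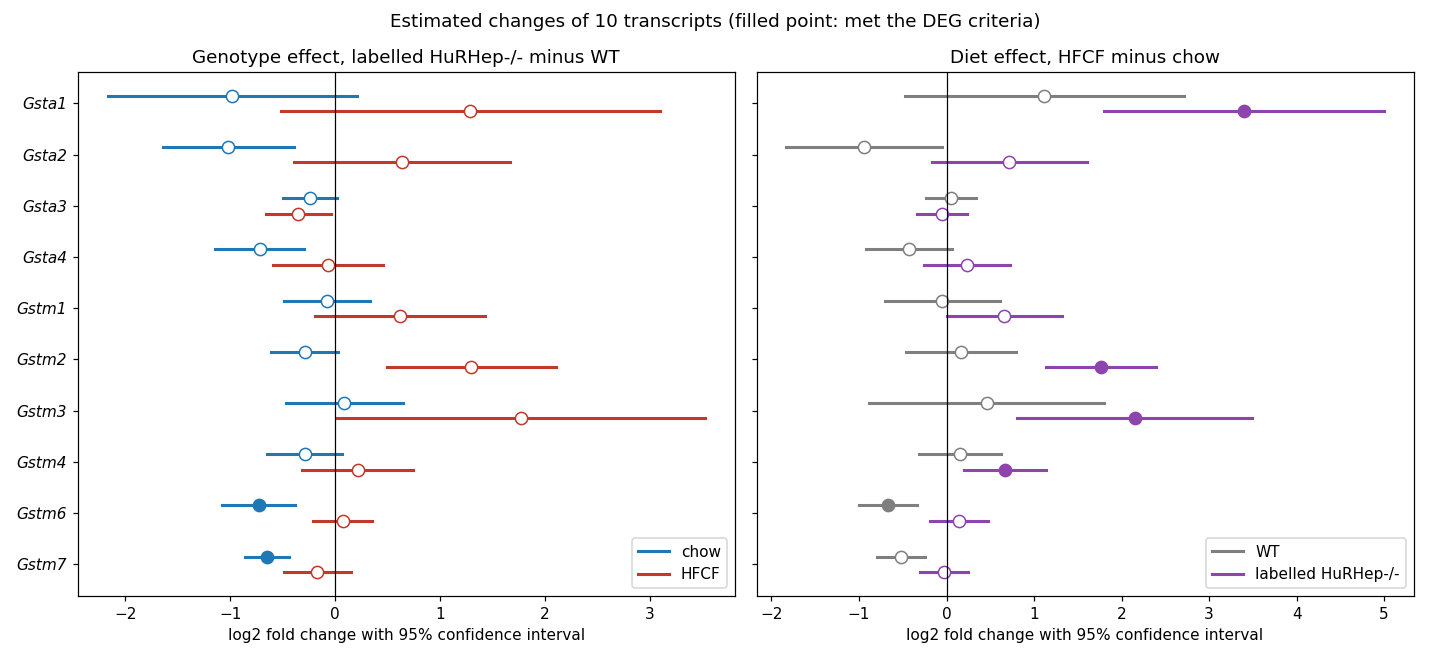
Log2 fold changes with 95% confidence intervals for the 10 genes, livers labelled HuRHep-/- against WT in each diet (left) and HFCF against chow in each genotype (right), with filled points for genes that met the DEG criteria. Filled points are Gstm6 and Gstm7 in chow, Gstm6 in WT, and Gsta1, Gstm2, Gstm3 and Gstm4 in livers labelled HuRHep-/-.

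The second comparison asked the same of the HFCF livers. Estimates for Gstm3, Gstm2, Gsta1, Gsta2 and Gstm1 were positive and wide, those for Gstm6 and Gstm7 were near 0, and 7 of 10 members had a positive estimate. With limma 0 of 10 members met the DEG criteria, against 3.67% of 14295 genes. At an unadjusted p under 0.05, limma gave 3 of 10 members beside 29.6% of all genes, and limma with voom weights 2 of 10 beside 30.4%. The members' median log2 fold change was 0.42, beside -0.0093 over all genes.

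Gstm2 held 2695, 2409 and 4561 normalized counts in WT HFCF livers and 9785, 9778 and 4685 in HFCF livers labelled HuRHep-/-. The groups did not overlap, but HuRHep-/- replicate 3 was barely above WT replicate 3. Its log2 fold change was 1.30 ± 0.34 (limma, adjusted p = 0.0632), and it was called without WT replicate 3 (limma, adjusted p = 0.0397). Gstm3 held 4386, 1376 and 9594 against 22518, 17165 and 6009, and the lowest liver labelled HuRHep-/- fell inside the WT range. With a log2 fold change of 1.77 ± 0.75, Gstm3 was not called (limma, adjusted p = 0.166), and the estimate ran from 1.02 to 2.43 when each of the 6 livers was left out.

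Gstm1, the most abundant member, held 62376, 38384 and 88982 normalized counts in WT HFCF livers and 120324, 102402 and 63879 in those labelled HuRHep-/-, a log2 fold change of 0.62 ± 0.34 (limma, adjusted p = 0.266). Gsta1 held 849, 244 and 2024 against 3150.5, 2145 and 921, a log2 fold change of 1.29 ± 0.77 (limma, adjusted p = 0.298) that ran from 0.48 to 2.02 over the same omissions. In both genes the groups overlapped. Gsta3 went the other way, with 45283, 59282 and 49952 against 44413, 42167 and 35156 and a log2 fold change of -0.35 ± 0.13 (limma, adjusted p = 0.136). Gsta3 and Gstm2 were the 2 members without overlap, against 37.1% of all genes. Log2 fold changes of Gsta2 (0.64 ± 0.44), Gsta4 (-0.07 ± 0.22), Gstm4 (0.21 ± 0.22), Gstm6 (0.07 ± 0.12) and Gstm7 (-0.17 ± 0.14) came with overlapping groups.

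The spread within the HFCF groups ran through most members alike. WT replicate 2 was the lowest WT HFCF liver for Gsta1, Gsta2, Gsta4, Gstm1, Gstm2, Gstm3 and Gstm4, and WT replicate 3 was the highest for each of these 7 genes. Among HFCF livers labelled HuRHep-/-, replicate 3 was the lowest for all 10 members. From the lowest to the highest WT HFCF liver Gsta1 differed 8.29-fold and Gstm3 6.97-fold, whereas Gsta3 differed 1.31-fold and Gstm6 1.26-fold. As a description over 12 livers, deviations from group means correlated at a Pearson r of 0.98 between Gstm1 and Gstm3, 0.91 between Gstm1 and Gsta1, 0.91 between Gstm1 and Gsta4, and -0.01 between Gstm1 and Gstm7. Gstm1 and Gstm3 share sequence, and all points share libraries.

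**Figure D4:**
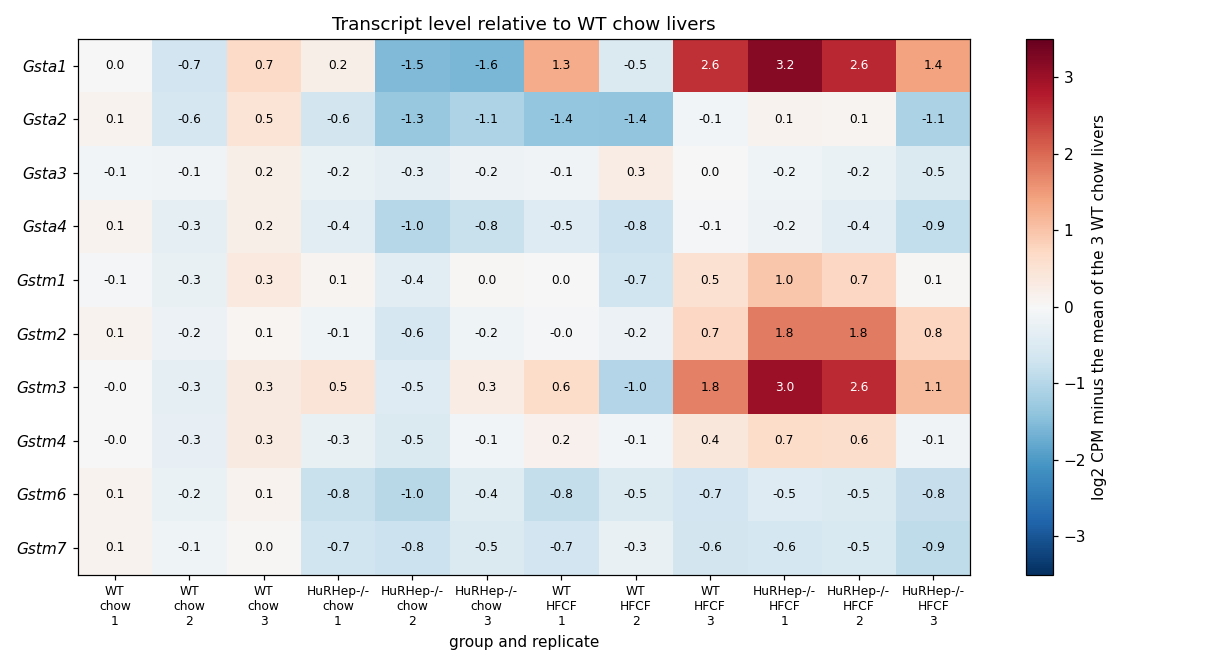
Log2 CPM of each gene in each liver minus the mean of the 3 WT chow livers, with genes as rows and livers as columns. Within HFCF, HuRHep-/- replicates 1 and 2 are the highest columns for Gsta1, Gstm2 and Gstm3, while Gstm6 and Gstm7 are below the WT chow mean in all livers of the 3 remaining groups.

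The third comparison, diet in WT livers, asked how livers that received the virus without Cre differed between chow and HFCF. Gstm6 and Gstm7 were the members that passed the adjusted p, both lower in HFCF. The WT chow livers are those of the first comparison, so this is not a separate finding. Of the 10 members 1 was called, Gstm6, against 9.36% of 14535 genes. The median log2 fold change was 0.0012 over the members, 5 of which had a positive estimate, and 0.0025 over all genes. Gstm6 went from the WT chow values above to 2858, 3603 and 3188 normalized counts in WT HFCF livers, without overlap and with a log2 fold change of -0.67 ± 0.15 (limma, adjusted p = 0.00956). It was called in each of the 6 fits that left out 1 of these livers, but not in the sum with Gstm1, Gstm3 and Gm12494 (-0.0451; limma, adjusted p = 0.934). Over the same comparison all 10 hepatocyte markers had a negative estimate, 3 of them called, with a median log2 fold change of -0.53. Of 10 Kupffer cell and macrophage markers 5 were called higher, while 2 had a negative estimate. The part of these markers in the values of Gstm6 and Gstm7 was not tested. Gstm7 held 1368, 1830.0 and 1409 in WT HFCF livers, all below the lowest WT chow liver. Its log2 fold change of -0.52 ± 0.13 passed the adjusted p (limma, adjusted p = 0.0124) but not the fold change of 1.5, and without WT chow replicate 1 the adjusted p was 0.0526.

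Gsta2 held 541, 540.1 and 1312 normalized counts in WT HFCF livers, with the highest of them inside the chow range. Its log2 fold change was -0.94 ± 0.41 (limma, adjusted p = 0.112), and -1.36 without WT HFCF replicate 3 (limma, adjusted p = 0.0343). Gsta1 pointed upward at 1.12 ± 0.73 (limma, adjusted p = 0.285). The Gsta1 estimate was 1.93 without WT HFCF replicate 2 (limma, adjusted p = 0.0491) and 0.41 without WT HFCF replicate 3 (limma, adjusted p = 0.735). The sum of Gsta1, Gsta2 and Gm10639 gave -0.17 ± 0.52 (limma, adjusted p = 0.839), so the direction of Gsta1 in WT livers depended on treating it as a gene of its own. Groups without overlap between diets were those of 2 members, Gstm6 and Gstm7, beside 37.6% of all genes. Estimates for Gsta3, Gsta4, Gstm1, Gstm2, Gstm3 and Gstm4 lay between -0.42 and 0.46.

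The fourth comparison, diet in livers labelled HuRHep-/-, held the largest changes of the family. Gsta1, Gstm2, Gstm3 and Gstm4 rose with HFCF, and 8 of 10 members had a positive estimate. By the DEG criteria 4 of 10 members were called, all higher, against 19.2% of 14535 genes. The members' median log2 fold change was 0.66, beside -0.02 over all genes. Groups without overlap were found for 3 members, Gsta1, Gstm2 and Gstm3, which 55.5% of all genes also showed.

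Gsta1 rose from 397, 118 and 113 normalized counts in chow to 3150.5, 2145 and 921 in HFCF. The lowest HFCF liver was above the highest chow liver. The log2 fold change was 3.40 ± 0.73, or 10.5-fold (limma, adjusted p = 0.00416). Gsta1 was called in all 6 fits that left out a liver, with estimates from 3.02 to 4.01. For the sum of Gsta1, Gsta2 and Gm10639 the log2 fold change was 1.78 ± 0.52, or 3.43-fold (limma, adjusted p = 0.0181), so the rise stood in the summed counts but its size as a single gene rests on how shared reads were split.

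Gstm2 rose from 2505, 1853 and 2483 normalized counts to 9785, 9778 and 4685. The chow livers were close together and the HFCF livers all higher. At a log2 fold change of 1.76 ± 0.29, or 3.39-fold, Gstm2 had the smallest p of the members (limma, adjusted p = 0.000985) and was called in all 6 omissions. Gstm3 rose from 3852, 2047 and 3362 to 22518, 17165 and 6009, a log2 fold change of 2.15 ± 0.61, or 4.44-fold (limma, adjusted p = 0.0167). The call of Gstm3 was lost without chow replicate 2 (limma, adjusted p = 0.0594), without HFCF replicate 1 (0.0670) and without HFCF replicate 2 (0.0556).

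Gstm4 held 1872, 1593 and 2103 normalized counts in chow livers and 3549, 3442 and 2064 in HFCF livers labelled HuRHep-/-. HFCF replicate 3 lay within the chow range. Its log2 fold change was 0.67 ± 0.21, or 1.59-fold (limma, adjusted p = 0.0271). Without chow replicate 1 or 2 or HFCF replicate 1 or 2 it was not called, with adjusted p from 0.0518 to 0.0967.

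Gstm1 (0.66 ± 0.30; limma, adjusted p = 0.101) and Gsta2 (0.72 ± 0.41; limma, adjusted p = 0.179) pointed upward without a call, and both were called without HFCF replicate 3 (limma, adjusted p = 0.0360 and 0.0462). Adding the counts of Gstm1, Gstm3, Gstm6 and Gm12494, which share at least 5% of their words, gave 0.76 ± 0.31 (limma, adjusted p = 0.0710), a sum set mainly by Gstm1. Gsta3 (-0.05 ± 0.13), Gsta4 (0.24 ± 0.22), Gstm6 (0.14 ± 0.15) and Gstm7 (-0.03 ± 0.13) stayed near 0, with 95% intervals of -0.34 to 0.23, -0.26 to 0.73, -0.19 to 0.47 and -0.30 to 0.24.

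Ratios within a liver set the paralogs beside each other without any scaling between libraries. The Gsta1 count was 0.230 to 0.282 of the Gsta2 count in WT chow livers and 0.170 to 0.446 in chow livers labelled HuRHep-/-. In HFCF it was 0.452 to 1.57 in WT livers and 1.42 to 2.08 in livers labelled HuRHep-/-. The diets did not overlap in either genotype (exact permutation test, two-sided, p = 0.1 in each, the smallest that 3 against 3 can give). Gstm2 stood at 0.0382 to 0.0391 of Gstm1 in chow livers labelled HuRHep-/- and at 0.0733 to 0.0955 in HFCF, again without overlap (exact permutation test, p = 0.1), and Gstm3 at 0.0427 to 0.0587 and 0.0941 to 0.187 of Gstm1. The Gstm6 count was between 1.97 and 2.61 times the Gstm7 count in all 12 livers. In HFCF the genotypes did not overlap in this ratio, at 1.97 to 2.26 in WT livers and 2.39 to 2.61 in livers labelled HuRHep-/- (exact permutation test, p = 0.1). Nor did they for Gstm2 over Gstm1, which was 0.0432 to 0.0628 in WT HFCF livers (exact permutation test, p = 0.1). In the family of 16 ratio comparisons no adjusted value can pass, as the smallest raw p is 0.1.

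The fifth comparison tested whether the genotype effect differed between diets. For 9 of 10 members the interaction estimate was positive, at a median log2 of 0.76 beside -0.01 over all genes. With limma 0% of 14535 genes, and 0 members, were called. With voom weights 1 gene, not a member, passed the adjusted p, and 0 met the DEG criteria. At an unadjusted p under 0.05, limma gave 2123 genes (14.6%) and 5 of 10 members, and voom 2102 genes (14.5%) and 4 of 10 members. The largest estimates relative to their error were those of Gstm6 (0.81 ± 0.21; limma, adjusted p = 0.165), Gstm2 (1.60 ± 0.41; limma, adjusted p = 0.153), Gsta2 (1.66 ± 0.57; limma, adjusted p = 0.240) and Gstm7 (0.49 ± 0.18; limma, adjusted p = 0.256). In simulated data the same fit left most genes with a 2-fold interaction uncalled, and called most with a 4-fold interaction. The simulation gave every gene the same dispersion (relative spread). Gsta1 and Gstm3 varied widely, with SDs of log2 CPM of 1.53 and 1.41 in WT HFCF livers. A missing call thus says little here. A genotype effect past the threshold in chow alone was thus not shown to differ from that in HFCF for Gstm6 or Gstm7.

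Other genes of the pathway were read from lists, in which a gene is counted as called, higher or lower, where it met the DEG criteria. The shares of all genes called in either direction, given above, were 2.31% between genotypes in chow, 3.67% in HFCF, 9.36% for diet in WT and 19.2% for diet in livers labelled HuRHep-/-. Of 13 other glutathione transferases tested, 0 were called by limma between genotypes in chow and 1 in HFCF (Gstt2, higher). With diet 1 was called higher and 1 lower in WT livers, and 2 higher and 2 lower in livers labelled HuRHep-/-. Gstp1, the pi class enzyme of male mouse liver, fell by 1.88 ± 0.19 on the log2 scale (limma, adjusted p = 9.12e-05), and Hpgds, the sigma class prostaglandin D synthase, rose by 1.22 ± 0.31 (limma, adjusted p = 0.00931). In WT livers Gstp1 was also lower with HFCF (-1.52 ± 0.19; limma, adjusted p = 0.000568) and Hpgds higher (1.80 ± 0.31; limma, adjusted p = 0.00254).

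Among NRF2 and its targets, 0 of 19 genes were called by limma between genotypes in chow and 0 of 20 in HFCF. With diet, 3 of 20 were called higher in WT livers, beside 9.36% of all genes, and 8 of 20 in livers labelled HuRHep-/-, beside 19.2%. None was called lower in either, though 5 of 20 had a negative estimate in each and 1 of those passed the adjusted p in livers labelled HuRHep-/-. Examples in livers labelled HuRHep-/- were Cbr3, a carbonyl reductase (3.06 ± 0.53; limma, adjusted p = 0.00132), and Nqo1, a quinone reductase (1.19 ± 0.22; limma, adjusted p = 0.0019). In WT livers Nqo1 rose by 0.67 ± 0.22 (limma, adjusted p = 0.0464) and Srxn1, which restores peroxiredoxins, by 1.05 ± 0.19 (limma, adjusted p = 0.00349).

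In the list of CAR, PXR and their targets, 0 of 20 genes were called higher and 6 lower with diet in WT livers, where 8 had a positive estimate and 12 a negative one. In livers labelled HuRHep-/- 1 was called higher and 7 lower, where 7 had a positive estimate and 13 a negative one. Cyp2c29, a cytochrome P450 induced through CAR, fell by 0.90 ± 0.16 in WT (limma, adjusted p = 0.00263) and by 1.18 ± 0.16 in livers labelled HuRHep-/- (limma, adjusted p = 0.000363). Between genotypes in HFCF 1 of 20 was called higher (Slco1a4) and 2 lower (Ugt1a1 and Cyp2c54). In chow 2 of 19 were called, both lower, Ugt1a1 (-0.71 ± 0.07; limma, adjusted p = 0.00712) and Cyp2c54 (-0.66 ± 0.13; limma, adjusted p = 0.0337). Glutathione synthesis and recycling held 1 fall of 14 in WT livers with diet, Cth, which makes cysteine (-0.91 ± 0.13; limma, adjusted p = 0.00101), and 1 rise (Gpx4) and 1 fall (Cth) in livers labelled HuRHep-/-. Of 6 AhR genes, 0 rose and 2 fell with diet in WT livers, and 1 rose and 1 fell in livers labelled HuRHep-/-, with Cyp1a2 lower in both.

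Of 11 genes of acetaminophen activation and other conjugation, 3 fell with diet in WT livers and 6 in livers labelled HuRHep-/-, and none rose. Between genotypes in HFCF 3 of the 11 were called, all lower in livers labelled HuRHep-/-. They were Cyp2e1, the main enzyme that activates acetaminophen (-0.77 ± 0.17; limma, adjusted p = 0.0432), the sulfotransferase Sult2a8 (-2.07 ± 0.37; limma, adjusted p = 0.0295) and the glucuronosyltransferase Ugt1a1 (-0.66 ± 0.09; limma, adjusted p = 0.0173). In chow Ugt1a1 was called lower, as given above, and Ugt1a9 higher (1.14 ± 0.14; limma, adjusted p = 0.0110). Ugt1a transcripts share exons, so the values of Ugt1a1 and Ugt1a9 are uncertain as single genes. Of 19 genes of mercapturate formation and conjugate export, 2 rose and 1 fell with diet in WT livers, and 4 rose and 1 fell in livers labelled HuRHep-/-, beside 9.36% and 19.2% of all genes. Abcc1, an exporter of glutathione conjugates, rose in both, by 0.78 ± 0.26 in WT (limma, adjusted p = 0.0492) and by 1.40 ± 0.26 in livers labelled HuRHep-/- (limma, adjusted p = 0.00204). Nat8f5, of the N-acetyltransferase 8 family, rose with diet in WT livers by 1.68 ± 0.20 (limma, adjusted p = 0.000426). It was the 1 gene of the list called between genotypes in HFCF, lower in livers labelled HuRHep-/- (-1.62 ± 0.16; limma, adjusted p = 0.00844), and 0 of 18 were called by limma in chow.

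Markers of other cells moved with some of these effects. Summed cholangiocyte markers ranged from 1319 to 2967 normalized counts in WT HFCF livers and from 4478 to 8096 in HFCF livers labelled HuRHep-/-, the group in which Gstm2, Gstm3 and Gsta1 were highest, and all 5 tested rose there with diet. Stellate markers summed to 5702 to 12783 and 12522 to 15524, and all 8 rose with diet in livers labelled HuRHep-/-. Kupffer cell and macrophage markers summed to 7620 to 13286 and 11662 to 17734. With diet in livers labelled HuRHep-/-, 6 of the 10 were called higher, and 2 had a negative estimate. All 10 hepatocyte markers had a negative diet estimate there, 3 of them called, with a median of -0.48. Of 7 lymphocyte markers 5 had a positive diet estimate in livers labelled HuRHep-/- and 2 a negative one, with a median of 0.35. Called higher were 3, Cd8a 3.59-fold, Nkg7 2.73-fold and Cd3e 2.71-fold (limma, adjusted p = 0.00677, 0.00964 and 0.00526), and 0 were called by limma in WT livers. Their sum was low, at 143 to 202 normalized counts in chow and 199 to 254 in HFCF livers labelled HuRHep-/-. None of the markers in these 5 lists was at 0 in as many as 6 livers. In chow, all 10 Kupffer cell and macrophage markers had a higher estimate in livers labelled HuRHep-/-, with a median of 0.49 and none called by limma, and their sum ranged from 4976 to 6341 in WT livers and from 7073 to 10314 in livers labelled HuRHep-/-. Also in chow, Saa1 was 16-fold and Lcn2 8.35-fold higher in livers labelled HuRHep-/- (limma, adjusted p = 0.0205 and 0.0276), and 5 of 14 acute phase genes rose and 1 fell. With diet, 3 acute phase genes were called higher and 1 lower in WT livers, and 1 higher and 7 lower in livers labelled HuRHep-/-. Of 14 periportal genes, 0 were called higher and 6 lower with diet in WT livers, and 1 higher and 4 lower in livers labelled HuRHep-/-. Of 14 pericentral genes, 1 was called lower in WT livers and 4 in livers labelled HuRHep-/-, and 0 higher in either. Between genotypes in HFCF, 11 of the 14 pericentral genes had a negative estimate, with a median log2 fold change of -0.38, and 4 were called lower and 1 higher (Rhbg), beside 3.67% of all genes. Their sum did not overlap there, at 423955 to 494347 normalized counts in WT livers and 295137 to 333701 in livers labelled HuRHep-/-. In chow 1 was called, Glul, which makes glutamine (0.85 ± 0.12; limma, adjusted p = 0.0136), higher in livers labelled HuRHep-/-. Of the periportal genes 1 was called higher between genotypes in each diet and 0 lower. The part of any of these in the GST values was not tested.

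By Pearson r of log2 CPM over the 12 livers, given as a description among 10185 genes, the gene most like a member was found, and it is given for 9 of the 10. For Gsta1 it was G6pdx (r = 0.94), for Gstm3 Ephx1 (0.94), for Gstm1 Cenpo (0.95) and for Gstm2 Tagln (0.92). Gstm7 was most like Uox (0.97), Gstm6 like Wdr70 (0.91), Gsta3 like Tmem14c (0.93), Gsta4 like Dynlt3 (0.90) and Gsta2 like Orc2 (0.86). The points share libraries and the 4 group means.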

How the data were processed

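Livers were grouped by the labels. The authors used CLC Genomics Workbench with the GRCm38.p6 genome, and deposited 2 tables of counts per gene, 1 for each diet. The deposited values are counts written as text with commas, all whole once the commas were removed. They were analysed with limma on log2 CPM, and no count model was fitted. Read length and the treatment of reads matching several genes are not given in the sources used here. Libraries came from a stranded kit, and RNA integrity numbers were above 6. Counts per liver summed to between 30071731 and 35949203.

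Counts were turned here into log2 CPM with TMM factors written anew (trims 0.3 and 0.05) and a pseudocount of 0.5. A gene was kept if 3 or more livers reached the CPM that 10 counts make in a library of median size, and if its counts summed to 15 or more. Genotype effects used the 6 livers of a diet, and diet effects and the interaction all 12, in limma 3.58.1 with a variance trend (R 4.3.3) and Benjamini-Hochberg adjustment over all genes. The code was tested on simulated data in which known genes had been changed. Their median size was recovered, but most genes with a 2-fold interaction were not called. RPKM was computed from TMM-scaled counts and transcript length. Positions and transcripts were from GENCODE M21.

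Alternatives were other scaling factors, filters, a pseudocount of 2, voom weights, the replicate number as a block, other livers in the fit, summed paralogs and omission of each liver. Summing genes that share 5% of words was added after the data were seen. The 10 genes and the lists were chosen with earlier results of these data known. Named were all 10 members, Elavl1, up to 4 called genes per list and comparison with the smallest adjusted p, and the gene most like each member with a mean of at least 100 normalized counts. For Gstm4 the last is not reported here. Same-numbered livers of the WT and HuRHep-/- groups did not all deviate together, so numbers were not taken as pairs.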

Additional observations from a re-analysis of the deposited data

Results flagged for a closer look

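The genotype effect of Gstm2 pointed opposite ways in the 2 diets. All 3 chow livers labelled HuRHep-/- were below the WT chow mean of 2779 normalized counts, and all 3 HFCF livers so labelled were above the WT HFCF mean of 3222. The interaction of 1.60 (log2) did not pass when tested (limma, adjusted p = 0.153), and it ranged from 1.42 to 1.96 when each of the 12 livers was left out, with adjusted p from 0.0713 to 0.321.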

How the results depend on the processing

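The number of members called held under other scaling factors, filters, a pseudocount of 2 and voom weights in all 5 comparisons. The replicate block gave 4 members in chow, adding Gsta2 (adjusted p = 0.0380) and Gsta4 (0.0301), and changed no other count of members; the numbers were not taken as pairs. With 12 livers in the fit, 1 member was called in HFCF, Gstm2 (adjusted p = 0.0166). Summing genes that share 5% of words, chosen after seeing the data, gave 1 member in chow and 0 for diet in WT, since Gstm6 is then read with the far larger Gstm1, and turned Gstm3 to -0.11 in chow and -0.0451 for diet in WT. Both sums turned Gsta1 for diet in WT to -0.17. With the sum of Gsta1, Gsta2 and Gm10639 counted for both members, 5 were called for diet in livers labelled HuRHep-/-. The adjusted p alone, with the count minimum kept, gave 2 members for diet in WT, and raised the genes called from 313 to 571 in chow, 525 to 986 in HFCF, 1360 to 3467 for diet in WT and 2787 to 5683 for diet in livers labelled HuRHep-/-. Upper-quartile factors turned Gsta3 to 0.0295 and Gstm7 to 0.0505 for diet in livers labelled HuRHep-/-.

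Leaving out 1 liver gave 0 to 4 members in chow (8 to 318 DEGs among all genes) and 0 to 1 in HFCF (31 to 825). It gave 1 to 3 for diet in WT (850 to 1786), 2 to 6 for diet in livers labelled HuRHep-/- (2157 to 2530) and 0 for the interaction (0 to 35). The sign turned in some omissions for members that were not called in the comparison. In chow these were Gstm1 (-0.20 to 0.0835) and Gstm3 (-0.0949 to 0.36), and in HFCF Gsta4 (-0.24 to 0.13). For diet in WT they were Gsta3 (-0.0566 to 0.16), Gstm1 (-0.33 to 0.27), Gstm2 (-0.11 to 0.34) and Gstm3 (-0.19 to 1.21). For diet in livers labelled HuRHep-/- they were Gsta3 (-0.11 to 0.0621) and Gstm7 (-0.0919 to 0.0884), and for the interaction Gsta3 (-0.21 to 0.0117). The cause was not tested. With 3 livers a group, the spread of HFCF livers limits what can be called for Gsta1, Gstm1 and Gstm3.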

Other observations

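HuR binds U-rich RNA, and the stretch after the stop codon was searched for runs of T. The longest run was 9 bases in Gstm3 and 7 in Gstm6, against 5 in Gstm7 and at most 4 in the other 7 members. They are shown with 10 bases on each side and the run in capitals.
Gstm3: attctccccaTTTTTTTTTcacatggccc
Gstm6: aatcttcccaTTTTTTTccctctgtct

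TTTTT, counted with overlaps, was found 5 times in Gstm3, 3 times in Gstm6 and once in Gstm7, or 9.78, 7.92 and 1.80 per kilobase. Of 20534 genes, 73.4% held it, with a median of 3.45 per kilobase. The stretch was only 106, 109 and 170 bases long in Gsta1, Gsta2 and Gsta4, so a lack of matches there says little. ATTTA, the word of AU-rich elements, was found once, in Gsta3, and 65.9% of the genes held it. In all, 6 promoter motifs were searched on both strands. Beside TGACNNNGC they were the TATA box (TATAAA; Gsta2, Gstm1 and Gstm7; 13.6% of all promoters), the HNF1 motif (GTTAAT; Gsta3; 7.1%), the STAT5 site (TTCNNNGAA; Gsta1 and Gstm6; 8.3%), the CCAAT box (CCAAT; 12 of the 14 promoters of the members, from 7 of 9 genes; 37.4%) and the nuclear receptor motif (AGGTCA; Gstm1; 16.3%). A gene is named where any of its annotated starts matched, whereas the percentages are of single promoters. These are matches of letters, and binding was not measured here.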
